A study of Oryza sativa with 16 samples.

Results

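Among the 60-mer probes of a rice oligonucleotide array, 247 probes of the classes that the array annotation names END3TU and ENDS gave much lower signals with RNA from shoots of the indica cultivar IR64 than with RNA from shoots of the japonica cultivar Nipponbare. They were selected on that difference. A probe was included when its name held E3TU (class END3TU) or ended in END (class ENDS), when its log2 ratio of IR64 shoot over Nipponbare shoot was -2 or lower (a 4-fold lower signal) in both replicates, and when its Nipponbare shoot signal was flagged well above background in both. Of the 22807 probes in these classes 247 met the rule, and of the 83040 different probes on the arrays 22807 belonged to these classes. The selected probes were 191 of 8476 E3TU probes, which are called E3TU probes or 3′-end units here, and 56 of 14331 END probes, which carry the names of gene models of the TIGR annotation. The files explain neither class name, so that the place of a probe within its transcript is taken from the name alone.

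Indica and japonica are the major subspecies of cultivated rice. IR64 is a widely grown indica cultivar, and Nipponbare is the japonica cultivar whose genome was sequenced as the reference. The end of a plant transcript is set by cleavage and addition of a poly(A) tail, a gene often uses several such sites, and the 3′ untranslated region is as a rule less conserved in sequence than the coding region. On a 2-color array, RNA of each sample is labeled with its own dye and both samples compete for the same probe. The signal of a probe depends on the abundance of the RNA and on how well the RNA pairs with the probe. These cannot be told apart here for RNA of IR64, and a lower signal below is not a measured lower expression.

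The study hybridized 4 kinds of RNA, from IR64 shoot and from the root, the panicle and the callus of Nipponbare, in competition with RNA of Nipponbare shoot on 16 arrays. Each comparison had 2 replicates with opposite dyes, and each replicate used 1 array of each of 2 array sets. No sample was genetically modified, and none was treated apart from the callus medium. By the methods of the study, callus was cultured on medium that contained 2,4-dichlorophenoxyacetic acid. According to the labels, the shoots of both cultivars grew for 10 days on soil in a greenhouse (the methods of the study give 14 days), the roots for 10 days in hydroponic culture and the callus for 28 days, and panicles came from field plants at the late booting stage. The RNA came from 10 pooled plants. Shoot RNA was extracted with Trizol and the RNA of the other Nipponbare tissues with a column kit, so that extraction and tissue cannot be told apart. The labels name only 2 Nipponbare shoot extracts for the 8 shoot hybridizations, and both callus replicates used the same one, so that the shoot side of callus was not replicated. Over all probes other than controls, between 80.5% and 95.5% of a channel were well above background. Levels are processed signals scaled to a median of 1000 over these probes in each channel, with values above 100000 set to 100000, called the cap. Ratios were taken before scaling, from the same array. The probe sequences were not used here, and the probe names could not be paired with gene names.

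The rule took 2.25% of the E3TU probes and 0.391% of the END probes. Over all 83040 probes the same rule took 832, or 1.00%. It took 1.40% of the 37444 probes on full-length cDNA (FL-cDNA) loci (525 probes), 18 of the 1028 probes on single FL-cDNA clones and 0.193% of the 21761 probes on coding sequences of TIGR models (42 probes). With the signs turned round, so that IR64 was 4-fold or more higher and well above background, 55 E3TU probes (0.649%) and 63 END probes (0.440%) passed. So did 99 probes on FL-cDNA loci (0.264%), 0 on single FL-cDNA clones and 41 on coding sequences (0.188%). The E3TU class thus had more probes on the low side of IR64 than on the high side, as did the FL-cDNA loci and clones. The END class and the coding sequences had similar numbers on both sides. Since the shoot flag is part of the rule, only the 18364 E3TU and END probes flagged in Nipponbare shoot on the arrays of both replicates could have been selected.

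The log2 ratio of IR64 over Nipponbare shoot, averaged over both replicates, ranged from -6.37 to -2.06 over the 247 probes with a median of -2.96, a 7.80-fold lower signal. The middle part of the distribution, between the quartiles, lay between -3.66 and -2.54. The median was -3.08 for the E3TU probes and -2.81 for the END probes. The E3TU probes reached further down, to an 82.7-fold lower signal, against 18.9-fold for the lowest END probe. The replicates, which had opposite dyes, differed by an SD with a median of 0.25, and the largest SD was 3.17. These values describe the selection and were not tested.

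The E3TU probe with the lowest ratio was R03-E3TU-00836F. It had levels of 412 and 465 in IR64 shoot, against 37557 and 33333 in Nipponbare shoot, with a mean log2 ratio of -6.37 ± 0.21 (SD, n = 2). In the 6 hybridizations of Nipponbare shoot beside other tissues it lay between 31476 and 52677 with a median of 43390. The probe was thus bright in every hybridization of Nipponbare shoot and dim in those of IR64 shoot. R12-E3TU-00615F was at the cap in all 8 Nipponbare shoot hybridizations and had levels of 1271 and 2011 in IR64 shoot, a log2 ratio of -6.21 ± 0.36 (SD, n = 2). R01-E3TU-00420R had 678 and 447 in IR64 shoot, against 25046 and 28112 in Nipponbare shoot. R10-E3TU-00562R had 433 and 320 in IR64 shoot, against 16719 and 16603 in Nipponbare shoot. In none of these probes did the values of the cultivars come near each other, and the IR64 values were still well above background on both arrays. R08-E3TU-01026F gave 499 and 228 in IR64 shoot, against 14910 and 13650 in Nipponbare shoot, where the IR64 values differed more between replicates than the Nipponbare values did.

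R07-E3TU-00812R had levels of 65.7 and 44.7 in IR64 shoot, not well above background on either array, against 2962 and 4678 in Nipponbare shoot. For such a probe only a bound can be given. The bright side was set against the higher of the dim probe's own signal and the lowest signal well above background of the array, on values normalized within and between arrays, which made the probe at least 41.5-fold lower in IR64. Of the 247 probes, 186 were well above background in IR64 on both arrays, 32 on 1 and 29 on neither. The 29 bounds ran from at least 3.50-fold to at least 41.5-fold lower, with a median of 7.46. Among all 18364 probes that the rule could have taken, 130 (0.708%) were not above background on either IR64 array.

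The END probe with the lowest ratio was 9640.m03245_END. It had levels of 538 and 968 in IR64 shoot, against 11225 and 16137 in Nipponbare shoot, a log2 ratio of -4.24 ± 0.22 (SD, n = 2). 9631.m00984_END came next, with 720 and 748 in IR64 shoot, against 11590 and 15944 in Nipponbare shoot. In both END probes the values of the cultivars were far apart in each replicate. 9629.m07075_END had 479 and 238 in IR64 shoot, against 4680 and 7511 in Nipponbare shoot, and its log2 ratios of -3.30 and -5.00 differed by more than those of most selected probes. 9638.m03424_END had 228 and 635 in IR64 shoot, against 4881 and 8648 in Nipponbare shoot. 9633.m01111_END had 796 and 1193 in IR64 shoot, against 12431 and 18004 in Nipponbare shoot, and its ratios were nearly equal in the replicates, -3.98 and -3.94. The last of the 6 lowest END probes, 9638.m03069_END, was brighter on both sides, with 3112 and 2122 in IR64 shoot, against 37477 and 39914 in Nipponbare shoot.

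A low ratio did not always mean a dim probe in IR64. The brightest of the 247 in IR64 was R08-E3TU-00119R, with 44567 and 90949 in IR64 shoot, against the cap in Nipponbare shoot on both arrays, where 1 of the spots was saturated. The measured log2 ratios were -2.86 and -3.27, and the fall is a lower limit on the saturated array. R07-E3TU-00123F had 28246 and 35088 in IR64 shoot and 9629.m06984_END had 23757 and 38604, and Nipponbare shoot was at the cap for both of them. All of these IR64 levels were above 20000, where the channel median is 1000.

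The limit of -2 cut through a continuous distribution. In 51 selected probes the higher of the 2 replicate ratios lay between -2.25 and -2, and in 62 further E3TU and END probes with the shoot flag it lay between -2 and -1.75. Just inside were R11-E3TU-00802R, with log2 ratios of -2.44 and -2.002, and R01-E3TU-01550R, with -2.005 and -2.23. Just outside were 9640.m01464_END, with -2.78 and -1.998, and 9630.m01945_END, with -1.997 and -2.15. A difference in membership at this edge is smaller than the spread between replicates. The number of probes also depended on the processing. After background correction with normexp (offset 50) and loess normalization 104 of the 247 still met the rule and no other probe did. With 1 replicate alone the rule took 478 probes (replicate 2) or 424 probes (replicate 1).

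The share of selected probes grew with their brightness in Nipponbare shoot. Below a mean level of 1000 the rule took 26 of 8519 flagged probes (0.305%), and between 1000 and 5000 it took 99 of 6500 (1.52%). Between 5000 and 20000 it took 71 of 2311 (3.07%), and from 20000 up 51 of 1034 (4.93%). The median log2 ratio was similar in all 4 ranges, between -3.21 and -2.78. Of the 29 probes not above background on either IR64 array, 21 were in the lowest range and 8 in the next. The classes differed in brightness and in the share selected (2.25% of E3TU and 0.391% of END probes). What part the mix of classes, or closeness to background in the lowest range, had in this growth was not tested.

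In Nipponbare the selected probes were bright. The median over the 247 probes was 558 ± 29.1 in IR64 shoot (SD over 2 hybridizations), against 5022 ± 484 in Nipponbare shoot on the same arrays (SD over 2 hybridizations). In the other tissues it was 2432 ± 302 in root, 3280 ± 169 in panicle and 3627 ± 77.1 in callus (SD over 2 hybridizations each), against 6371 ± 818 in Nipponbare shoot on the arrays of these 3 comparisons (SD over 6 hybridizations of the same extracts). The medians of root, panicle and callus all lay above that of IR64 shoot and below that of Nipponbare shoot, and the order of panicle and callus held in both replicates. By class, the median level in root was 2633 for the E3TU probes and 1409 for the END probes, in panicle it was 4114 and 1293, and in callus 4842 and 1317. Over all E3TU probes the medians were 1548 in root, 1544 in panicle and 1507 in callus, and over all END probes 485 in root, 463 in panicle and 479 in callus. The selected probes were thus brighter than their class in tissues that the rule did not use, by 1.70-fold to 3.21-fold for E3TU and by 2.75-fold to 2.90-fold for END. Brightness in Nipponbare shoot was, however, part of what the rule used.

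Nearly all selected probes were detected in every Nipponbare tissue. They were well above background on both arrays in 239 of 247 cases in root, 235 in panicle and 238 in callus, and on neither array in 6, 7 and 5. In a single channel of these tissues the share was 95.5% to 97.6%, against 87.0% to 92.8% of all E3TU and END probes. The latter include probes without the shoot flag and were dimmer, and the part of the flag and of brightness in this difference was not tested. In all 14 Nipponbare channels (8 of shoot, 6 of other tissues) 230 of the 247 probes (93.1%) were well above background, against 86.8% of the 18364 flagged E3TU and END probes. The probe with the fewest detections had 8 of 14. Of the 29 probes not above background in IR64, 18 were detected in all 14 Nipponbare channels, among them R07-E3TU-00812R. In 172 of the 247 probes (69.6%) both IR64 values were lower than every one of the 14 Nipponbare values, tissues other than shoot included, against 6.13% of the flagged probes. This held for 142 of 191 E3TU probes and 30 of 56 END probes. The first of these shares is partly fixed by the rule, since 8 of the 14 values are of shoot.

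The tissues were compared with shoot by limma over all probes. The tissue ratios came from arrays that the rule did not use, but the spread in these tests was estimated with the IR64 arrays included. The Nipponbare shoot extracts are, by their labels, those hybridized against IR64, and probes with a high shoot signal were favored by the rule. With the arrays of a comparison alone, 131 probes were lower and 45 higher in root, 139 and 45 in panicle, and 135 and 62 in callus. The counts below are of the fit with all arrays. In root, 125 of the 247 probes were lower than in shoot (adjusted p under 0.05), against 23.2% of the 83038 probes tested, and 48 were higher, against 23.2%. The median log2 ratio of root over shoot was -0.80 over the 247 probes and -0.051 over all probes tested. In panicle, 144 were lower, against 24.6% of the probes tested, and 45 were higher, against 22.6%, with a median of -1.07 against -0.045. In callus, 133 were lower, against 24.6%, and 58 were higher, against 24.9%, with a median of -0.85 against -0.060. As shares of the selected probes, 50.6% were lower in root, 58.3% in panicle and 53.8% in callus, each above the background share, and the shares of higher probes, 19.4%, 18.2% and 23.5%, were a little below it. In panicle, leaving out either replicate brought the count of higher probes to 29. The 3 comparisons have the shoot extracts in common, so that their counts are not independent of each other.

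Set against probes of the same range of brightness, the excess of lower probes depended on that range. Among probes with a shoot level of 20000 or more, 54.9% of the 51 selected probes were lower in root, against 65.9% of the other flagged E3TU and END probes. For panicle the shares were 66.7% and 65.6%, and for callus 60.8% and 64.3%. Between 5000 and 20000 they were 63.4% and 44.0% in root, 63.4% and 47.4% in panicle, and 46.5% and 47.8% in callus. Between 1000 and 5000 they were 41.4% and 31.0% in root, 52.5% and 34.6% in panicle, and 54.5% and 32.8% in callus. Below 1000, where 26 probes were selected, the share lower in root was 42.3%, against 12.0% of the other probes, 13 of the 26 were lower in panicle, against 14.4%, and 57.7% were lower in callus, against 12.8%. The excess was thus largest among the dimmest probes. In the brightest range the selected probes were thus not more often lower than the others in any tissue except panicle, where the shares were nearly equal. The part of shoot brightness in the counts of lower probes was not tested further.

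Among the selected probes, 4-fold falls were more frequent than over all probes and 4-fold rises were not. In root, 73 probes (29.6%) were 4-fold or more lower than shoot in both replicates with the shoot flag, against 4.57% of all probes, and 7 (2.83%) were 4-fold or more higher with the root flag, against 5.28%. In panicle, 67 (27.1%) were 4-fold lower, against 3.57%, and 5 (2.02%) were 4-fold higher, against 4.13%. In callus, 64 (25.9%) were 4-fold lower, against 5.14%, and 11 (4.45%) were 4-fold higher, against 6.22%. The shares over all probes include probes without the shoot flag. Every selected probe had that flag on arrays with the same shoot extracts, and high shoot signals were favored by the rule. More falls and fewer rises are thus partly fixed by the rule, and shares over flagged probes alone were not taken. The range over the 4 Nipponbare tissues was wide as well. The highest of the mean levels of shoot, root, panicle and callus was a median of 4.87-fold above the lowest, with quartiles of 2.60 and 14.4, against a median of 2.25-fold over the flagged E3TU and END probes. The range was over 10-fold in 73 selected probes (29.6%), against 8.47% of the flagged probes, and under 2-fold in 36 (14.6%), against 40.6%. The selected probes were also brighter than the flagged probes, and the part of brightness in these ranges was not tested. The mean levels were capped, so that a range that reaches the cap can be too small.

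By mean level, 127 of the 247 probes (51.4%) were highest in shoot, 52 (21.1%) in callus, 38 (15.4%) in panicle and 30 (12.1%) in root. These levels were capped, and 32 of the 247 probes reached the cap in at least 1 channel. A tie at the cap was counted for the first of shoot, root, panicle and callus. A probe at the cap in every shoot channel was thus counted for shoot, whatever its ratios to shoot. Over the flagged E3TU and END probes, 38.1% were highest in shoot, 25.2% in callus, 17.6% in panicle and 19.2% in root. Root was the lowest tissue in 105 probes (42.5%), against 22.6% of the flagged probes. Callus was lowest in 58 (23.5%, against 24.9%), panicle in 42 (17.0%, against 31.0%) and shoot in 42 (17.0%, against 21.6%). The combination of highest in shoot and lowest in root was the most frequent of the 12 possible, with 63 of the 247 probes (25.5%), against 10.5% of the flagged probes. The remaining 120 of the 247 probes were brighter in another tissue than in shoot, a smaller share than over the flagged probes. High signals of the same shoot extracts were favored by the rule, so that the larger share highest in shoot is partly fixed by it. The flagged probes were not matched for brightness, and its part in these shares was not tested.

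Root, panicle and callus were also compared with each other, by an F test of the differences between their ratios to shoot. Both callus replicates were set against the same shoot extract, and those of root and panicle were not. A difference between the shoot extracts can therefore enter this test and cannot be told apart from one among the tissues. The spread was again estimated with the IR64 arrays included. The test passed the threshold (adjusted p under 0.05) in 112 of the 247 probes (45.3%), against 25.3% of the 82916 probes tested and 23.2% of all E3TU and END probes. It did so in 89 of 191 E3TU probes and 23 of 56 END probes. In the brightest range 62.7% of the selected probes passed, against 35.1% of the other flagged probes. Between 5000 and 20000 the shares were 45.1% and 32.9%, between 1000 and 5000 38.4% and 28.9%, and below 1000 38.5% and 20.8%. The share of selected probes that passed the F test was thus above that of the other probes in every range of brightness.

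The probes with the largest falls were brightest in shoot, and differed in how far they fell in each tissue. R12-E3TU-00615F had levels of 1878 and 2456 in root, 825 and 992 in panicle and 1155 and 1162 in callus, against the cap in every hybridization of shoot. Its log2 ratios to shoot were -6.13 ± 0.16 in root, -7.45 ± 0.16 in panicle and -7.23 ± 0.16 in callus (limma SE), and the adjusted p of the panicle fall was 1.48e-05. This probe, with the second lowest ratio in IR64, had IR64 shoot values of the same order as its Nipponbare root values. 9629.m06984_END had 3529 and 4386 in root, against the cap in shoot, a fall of 86.2-fold (adjusted p = 7.16e-06, limma), while panicle had 11888 and 21982 and callus 3886 and 6272. R08-E3TU-00206R had 494 and 664 in root, against 34401 and 57035 in shoot, with a log2 ratio of -6.23 ± 0.13 (adjusted p = 5.91e-06, limma). In panicle it stayed near shoot, with 39829 and 36183 in panicle, against 56006 and 55316 in shoot, and in IR64 shoot it had 7836 and 7522.

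R01-E3TU-00069F was dim in every sample other than Nipponbare shoot. It had 299 and 423 in root, 256 and 263 in panicle, 329 and 328 in callus and 485 and 575 in IR64 shoot, against 15570 to 20272 in the 8 Nipponbare shoot hybridizations. R05-E3TU-00917F had 302 and 152 in callus, against 22009 and 16630 in shoot, a fall of 86.2-fold (adjusted p = 6.44e-06, limma), and 508 and 423 in IR64 shoot. In both probes IR64 shoot lay beside the other tissues and far from Nipponbare shoot. R07-E3TU-00123F was lower in each tissue by 13.0-fold (root), 25.04-fold (panicle) and 24.5-fold (callus).

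Other selected probes were brighter in another tissue than in shoot. R10-E3TU-00441R, with 74.0 and 179 in IR64 shoot, against 830 and 711 in Nipponbare shoot, had 19592 and 19331 in root, against 797 and 1327 in shoot on the same arrays, a rise of 19.5-fold (log2 4.29 ± 0.36, adjusted p = 0.000254, limma). In panicle it had 2347 and 2153, and in callus 1471 and 1320. Root was thus far above all other samples of this probe. R06-E3TU-00109F had 44550 and 73322 in root, against 5372 and 11872 in shoot, a rise of 7.36-fold (adjusted p = 8.29e-05, limma). R03-E3TU-00297F was at the cap in root, panicle and callus, against 13320 to 60330 in the shoot channels of those arrays, and rose by 8.58-fold in panicle and 9.32-fold in callus. R01-E3TU-01602F was also at the cap in these tissues, with a rise of 8.12-fold in callus. For both, 1 callus spot was saturated, which makes the callus values lower limits. The shoot values of both probes differed by more than 2-fold between the callus arrays.

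9639.m03479_END had 5420 and 4382 in panicle, against 1016 and 1037 in shoot, a rise of 4.81-fold (adjusted p = 0.000142, limma), and 5359 and 4847 in callus, against 891 and 1008 in shoot. In IR64 shoot it was not well above background on either array, which put it at least 5.71-fold lower than Nipponbare shoot. R11-E3TU-00802R, at the edge of the rule, rose in panicle alone of the 3 tissues, with 4056 and 5279 in panicle, against 1188 and 1778 in shoot. In callus it was lower by 1.51-fold (adjusted p = 0.0497, limma), and in root its log2 ratio was -0.15 ± 0.21.

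The probes with the smallest range over root, panicle and callus, with shoot set at 0, held nearly the same level in every Nipponbare tissue. R12-E3TU-00343R had 11184 and 14186 in root, 17781 and 18779 in panicle and 13072 and 14044 in callus, against 10056 to 14221 in shoot on those arrays. In IR64 shoot it had 2164 and 2368, below all of these. R02-E3TU-01742F had 6122 and 7049 in root, 10498 and 8351 in panicle and 9107 and 9335 in callus, against 7604 to 12302 in shoot, and 531 and 651 in IR64 shoot. 9629.m07075_END, one of the lowest END probes in IR64, had 7480 and 7971 in root, 7028 and 7694 in panicle and 6357 and 5136 in callus, against 5708 to 10328 in shoot. In this group the IR64 values stood apart from all Nipponbare values. R09-E3TU-00491R, the fourth, had 1026 and 1083 in root, 1397 and 716 in panicle and 1242 and 974 in callus, against 859 to 1335 in shoot, and was not well above background in IR64 shoot, at least 8.86-fold lower. Of the tissue ratios of these 4 probes, that of R12-E3TU-00343R in panicle passed the test (log2 0.46 ± 0.11, adjusted p = 0.0152, limma), and it no longer did when either panicle replicate was left out.

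The lowest probes in IR64 differed in their tissue patterns. R03-E3TU-00836F, the lowest of all, had 25986 and 33285 in root, against 31476 and 39939 in shoot, with an adjusted p of 0.20 (limma). It was 2.07-fold lower in panicle and 2.63-fold lower in callus, changes that were small beside the 82.7-fold difference between cultivars. R01-E3TU-00420R had 20525 and 20360 in panicle, against 19934 and 46084 in shoot, and was 2.61-fold lower in root. R10-E3TU-00562R was 7.29-fold lower in root, 4.57-fold lower in panicle and 2.82-fold lower in callus. R08-E3TU-01026F was lower by 20.1-fold in root, 11.6-fold in panicle and 21.5-fold in callus, and R07-E3TU-00812R by 19.5-fold, 5.64-fold and 9.08-fold. The callus value of R07-E3TU-00812R rests on replicate 1 alone, since an outlier spot was left out. Thus 2 of these stayed within 3-fold of shoot in all tissues and 2 fell more than 10-fold in root. R12-E3TU-00615F, described above and also among the lowest in IR64, fell by 69.9-fold in root.

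Among the lowest END probes the same spread was seen. 9640.m03245_END had 527 and 784 in root, 437 and 605 in panicle and 440 and 1097 in callus, against 8913 to 21858 in shoot, values close to its 538 and 968 in IR64 shoot. 9638.m03424_END was lower by 8.75-fold in root, 11.9-fold in panicle and 15.9-fold in callus. 9631.m00984_END, in contrast, had 27244 and 25922 in callus, against 13077 and 14834 in shoot, a rise of 1.98-fold (adjusted p = 0.00542, limma), and 11131 and 13044 in root, against 10533 and 17632 in shoot. 9633.m01111_END was 8.60-fold lower in root and 12.5-fold lower in panicle but 1.96-fold lower in callus, and the F test for a difference among the tissues passed (adjusted p = 0.000772, limma). 9638.m03069_END was 5.42-fold lower in root, 3.32-fold lower in panicle and 2.59-fold lower in callus.

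The names of the E3TU probes give a number of the unit after a code from R01 to R12, and in the locus names of the study this code is the chromosome. Selected probes carried every code. Their share was highest for code 12, with 22 of 588 E3TU probes (3.74%), and code 10, with 16 of 504 (3.17%), and lowest for code 5, with 7 of 653 (1.07%), and code 2, with 12 of 887 (1.35%). The other codes lay between 1.72% and 2.60%. Of names ending in R, 115 of 4305 (2.67%) were selected, and of names ending in F 76 of 4171 (1.82%). The END names begin with 1 of 12 assembly numbers, 9629 to 9640, and selected probes carried 11 of them. The highest share was 6 of 948 (0.633%) for 9638, and none of the 1211 END probes of 9635 was selected. The array sets gave similar shares, 133 of 12109 (1.098%) and 114 of 10698 (1.066%). These shares are descriptions and were not tested.

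Some selected probes had neighbouring unit numbers on the same strand code. The selected E3TU probes had 117 such neighbours on the arrays, and 18 of these (15.4%) were selected too, against 2.25% of all E3TU probes; they formed 9 runs of 2 units. The 99 neighbours that were not selected had a median log2 ratio of IR64 over Nipponbare shoot of -0.041, against 0.010 for all E3TU probes. Whether consecutive units belong to 1 transcript is not given by the names. A run may therefore be 1 source measured by 2 probes.

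In some runs both units had the same tissue pattern. R11-E3TU-00408R had 45850 and 53924 in root, against 12479 and 17398 in shoot, but 451 and 310 in panicle and 646 and 729 in callus. R11-E3TU-00409R was at the cap in root, with 1 root spot saturated, and had 3855 and 2122 in panicle and 11002 and 11088 in callus, against the cap in shoot. The log2 ratios of the run were 1.80 and 1.21 in root, -5.17 and -5.51 in panicle and -4.42 and -3.48 in callus, where the root ratio of R11-E3TU-00409R is a lower limit because of the saturated spot. Both units were dim in IR64 shoot relative to Nipponbare shoot, with ratios of -3.01 and -3.38. R06-E3TU-00651R and R06-E3TU-00652R were both lower in root (log2 -2.87 and -2.64) and panicle (-1.38 and -1.74) and both higher in callus (2.07 and 1.54). Callus levels of R06-E3TU-00651R were 67647 and 73284, against 21670 and 14004 in shoot. These runs rose in 1 tissue and fell in the others, and within each run the direction was the same for both units.

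R12-E3TU-00260R and R12-E3TU-00261R were lower in root (-2.63 and -2.11), panicle (-2.83 and -1.82) and callus (-4.54 and -2.43). R04-E3TU-00331R and R04-E3TU-00332R were lower in root (-3.38 and -2.66) and panicle (-2.14 and -0.98). In callus R04-E3TU-00331R was not well above background on either array, which put it at least 33.2-fold lower than shoot, and R04-E3TU-00332R was 2.53-fold lower. R05-E3TU-00312F and R05-E3TU-00313F both fell in root (-4.02 and -3.51) and panicle (-4.03 and -3.99) but by unequal amounts in callus (21.9-fold and 2.001-fold). R01-E3TU-00503R and R01-E3TU-00504R were moderately lower in root (-1.47 and -0.80), panicle (-0.73 and -0.73) and callus (-1.60 and -0.95), with IR64 ratios of -4.82 and -3.26. The direction was again shared within these runs, and the size was not always.

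In the remaining runs the units differed in at least 1 tissue. R10-E3TU-00182R was 1.51-fold higher in root (adjusted p = 0.0197, limma) and 1.40-fold higher in callus (adjusted p = 0.0381), with a log2 ratio of 0.44 ± 0.15 in panicle. R10-E3TU-00183R was also higher in root, by a log2 ratio of 0.83 that is a lower limit since 1 root spot was saturated (adjusted p = 0.0213, limma), but had 6765 and 7081 in panicle, 42.4-fold lower than shoot. R03-E3TU-01104F had 21361 and 25000 in root, against 6058 and 6006 in shoot, and 206 and 227 in panicle, against 5514 and 4515 in shoot. R03-E3TU-01103F, its neighbour, had log2 ratios of 0.94 ± 0.24 in root, 0.37 ± 0.24 in panicle and -0.80 ± 0.24 in callus (limma SE). R01-E3TU-02165F rose by 2.50-fold in callus (adjusted p = 0.00228, limma), where R01-E3TU-02164F was 1.48-fold lower (adjusted p = 0.0208, limma). In IR64 shoot, R01-E3TU-02164F and R03-E3TU-01103F were not well above background on either array, at least 12.9-fold and at least 9.07-fold lower than Nipponbare shoot.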

How the data were processed

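Signals came from the scanner files of 16 2-color 60-mer arrays, 4 per comparison. The deposited intensity values are processed signals that the authors made with Agilent Feature Extraction 8.1 by the methods and the file headers (7.5 by the labels), with background subtraction, spatial detrending and linear and LOWESS dye normalization within each array. The deposited log10 values are the authors' ratios of the same run and were an alternative. From the intensities, log2 ratios of tissue over shoot were computed per array. Replicate 1 had the tissue in Cy3 and replicate 2 in Cy5. For levels, each channel was scaled to a median of 1000 over 42034 probes and capped at 100000. Of the 247 selected probes, 32 reached the cap in at least 1 channel.

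Ratios were fitted with limma 3.58.1 in R 4.3.3, separately for the 8 arrays of each array set, with 1 coefficient per comparison, outlier spots left out and Benjamini-Hochberg adjustment over all probes of both sets. The 1028 probes on both sets were averaged. The fit was tested on simulated data. The F test compared root, panicle and callus. Of the selected probes 4 had an outlier flag on an IR64 array. Those spots stayed in the rule, which used all spots. Nothing in the labels says that the replicates came from separate cultures or harvests beyond their extract names, so p-values measure the spread between hybridizations, which may be technical, and 2 hybridizations per tissue limit the precision. Scan days did not overlap between the comparisons, so scan and comparison cannot be told apart.

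The selected probes, the tests and the lists were chosen with earlier results of these data known. Probes were named by rule: the 6 lowest mean IR64 ratios in each class; per tissue the 2 largest rises and falls among those that passed the test with equal sign in the replicates and signals well above background; 2 on each side of the limit; the 4 smallest ranges over the tissues; all units in runs; and the 3 brightest in IR64. A planned search of the probe sequences was not made, as the sequences were not used here. The alternatives, given in the closing section, changed the limit, the flags, the normalization, the scaling, the arrays fitted and the replicates.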

Additional observations from a re-analysis of the deposited data

Results flagged for a closer look

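Of the 46 selected probes named above, the F test found a difference among root, panicle and callus, as a change against shoot that was not the same in these tissues, in 24 (limma, adjusted p under 0.05), against 25.3% of all probes tested and 45.3% of the 247 selected probes. Some of the 46 were named for their large tissue changes, so this count is partly fixed by the choice. Among the probes with the lowest ratios in IR64 the adjusted p was 0.0114 for R03-E3TU-00836F, 0.0165 for R12-E3TU-00615F, 0.0127 for R10-E3TU-00562R and 0.000772 for 9633.m01111_END. Among the probes with the largest tissue changes the adjusted p was 0.0194 for 9629.m06984_END, 0.000207 for R08-E3TU-00206R, 0.0071 for R10-E3TU-00441R, 0.00825 for R06-E3TU-00109F, 0.0151 for 9639.m03479_END and 0.0103 for R05-E3TU-00917F. It was 0.0041 for R11-E3TU-00802R at the edge of the rule and 0.0292 for R07-E3TU-00123F, bright in IR64. Among the units in runs it was 0.0207 for R01-E3TU-02165F, 0.0254 for R03-E3TU-01103F, 0.000323 for R03-E3TU-01104F, 0.00258 for R04-E3TU-00331R and 0.0339 for R04-E3TU-00332R. It was 0.00205 for R05-E3TU-00313F, 0.000412 for R06-E3TU-00651R, 0.00101 for R06-E3TU-00652R, 0.000278 for R10-E3TU-00183R, 0.000207 for both R11-E3TU-00408R and R11-E3TU-00409R, and 0.0017 for R12-E3TU-00260R.

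In 2 of the 46 named probes, 1 of the 8 Nipponbare shoot hybridizations lay far from the others (Dixon's test at its 95% value). By chance this test marks about 1 group in 20, so that 2 is near the number that chance alone would give. R09-E3TU-00491R had a level of 401 on the array of IR64 replicate 2, against 859 to 1335 on the others. This low value belongs to the rule's own comparison, in which the log2 ratios were -4.41 and -2.49. R01-E3TU-00503R had 64673 on the array of callus replicate 1, against 35747 to 46599 on the others.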

How the results depend on the processing

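The number of probes that met the rule was 247 and became 675 with a limit of -1, 94 with a limit of -3, 104 with normexp and loess, and 424 to 478 with 1 replicate left out. It stayed within 1.5 times with no shoot flag, with the flag asked of IR64 as well (186), with centred arrays (248), without outlier spots (243) and with the deposited ratios (246). For the count of panicle-higher probes, 45, leaving out either replicate gave 29. All other counts of calls in root, panicle and callus and of the F test stayed within 1.5 times under every alternative run. The replicate numbers fix the dye, and replicate differences correlated between comparisons with r from 0.216 to 0.480 over probes. With this replicate block, 129 probes were lower and 51 higher in root, 148 and 49 in panicle, and 135 and 64 in callus, and the F test passed in 132, so the block changed no count by over 1.5 times.

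Median levels moved by more than the SD between hybridizations with scaling to the 75th percentile, to 640 in IR64 shoot, 3496 in callus and 5680 in Nipponbare shoot beside IR64. Without scaling they were 268 in IR64 shoot, 1680 in root, 2130 in panicle and 3525 in callus, against 2395 in Nipponbare shoot beside IR64 and 4600 beside the other tissues. Without the cap no median moved. Of 192 further values of named probes, 177 kept direction and side of the threshold. R02-E3TU-01742F in root passed with normexp and loess (log2 -0.44, adjusted p = 0.0203, limma), and R12-E3TU-00343R in panicle no longer passed without either replicate or with only the arrays of that comparison. The sign turned in 6 ratios between -0.25 and 0.09, none of which passed the test. For 9629.m07075_END it was -0.66 to 0.16 in callus and -0.25 to 0.43 in root with 1 replicate left out. For R02-E3TU-01742F in panicle it was 0.026 with normexp and loess, 0.045 with centred arrays and -0.19 to 0.19 with 1 replicate left out. For R09-E3TU-00491R it was 0.028 in callus and 0.038 in panicle with normexp and loess, and -0.40 to 0.31 in callus and -0.27 to 0.11 in panicle with 1 replicate left out. For R12-E3TU-00343R in callus it was -0.065 with normexp and loess and -0.070 to 0.089 with 1 replicate left out. The cause of these changes was not tested.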
